A study of Mus musculus with 4 samples.

Results

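The genes described here are the nuclear-encoded subunits of the respiratory chain, the enzyme series of the inner mitochondrial membrane that turns reducing power into ATP. They were chosen by name as all genes in the expression table whose symbol begins as those of complex I (Nduf a, b, c, s and v), complex III (Uqcr), complex IV (Cox4 to Cox8) or complex V (Atp5) do. Of the 22558 genes listed, 81 matched, and 79 of these had a mean of at least 1 FPKM over the 4 samples, among 14194 genes that did. FPKM is a fragment count scaled to the length of the transcript and the size of the library, so levels can be set side by side between genes of different length. The symbols gave 37 genes for complex I, 8 for complex III, 19 for complex IV, of which 17 passed the minimum, and 17 for complex V.

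Complex I oxidises NADH and passes the electrons to ubiquinone, complex III hands them on to cytochrome c, and complex IV transfers them to oxygen. All 3 pump protons, and complex V, the ATP synthase, lets the protons flow back and makes ATP. Each of these complexes joins products of the nuclear and the mitochondrial genome, and the mitochondrially encoded subunits were not analysed here. Photoreceptors hold densely packed mitochondria in their inner segments and are among the most energy-demanding cells of the body, and the retina also makes much lactate by glycolysis.

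RNA came from eyes of 6-week-old mice that lacked both Abca4 and Rdh8 (Abca4-/-Rdh8-/-), genes whose products clear all-trans-retinal from photoreceptors, so that bright light harms their retina. There were 4 groups, namely mice with no light treatment (control) and mice sampled 3 h, 24 h and 7 days after light exposure, each described as whole eyes of 3 mice. Every group carried both deletions, so the effect of the genotype cannot be seen. The tissue label gives the whole eye, while the extraction text speaks of removed retinas, and the table holds lens, muscle and corneal transcripts in every sample. The deposited table has 1 value for each gene and group, although the series describes triplicates, so no difference below has a replicate check and no test was made. The sex of the mice moved with time, since Ddx3y, a Y-linked gene, stood at 6.59 FPKM at 7 days and at 0.0053 FPKM or less in the other samples. Depth was judged from values taken as single fragments in olfactory receptor genes. By that estimate the libraries held about 23.8 M, 22.8 M, 30.5 M and 41.8 M fragments (M, mega) at control, 3 h, 24 h and 7 days. At that depth the approximate counting error of a member's log2 change had a median of 0.05 log2 units at each time. Coding length stood in for transcript length in this error, and it covers counting only, not differences between mice.

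The respiratory chain genes were abundant in every sample. Together the 79 genes added up to 13325 FPKM in the control, 13892 FPKM at 3 h, 13686 FPKM at 24 h and 13950.4 FPKM at 7 days. That was 2.13%, 2.04%, 2.07% and 2.08% of the summed FPKM of all genes. Of the 79 genes, 55 had a mean level of at least 100 FPKM and 7 a mean level under 20 FPKM. The gene with the highest mean level in the whole set was Atp5b, which encodes the catalytic beta subunit of ATP synthase, at 626.3 FPKM in the control, 626.6 FPKM at 3 h, 598.8 FPKM at 24 h and 602.1 FPKM at 7 days. Next came Cox8a, a small structural subunit of complex IV, with a mean of 597.5 FPKM, and Ndufa4, with a mean of 520.4 FPKM. Ndufa4 carries a complex I symbol, but its product was later placed in complex IV. Within complex III the highest level was that of Uqcrh, the hinge protein at the docking site of cytochrome c, at a mean of 288.7 FPKM.

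**Figure D1:**
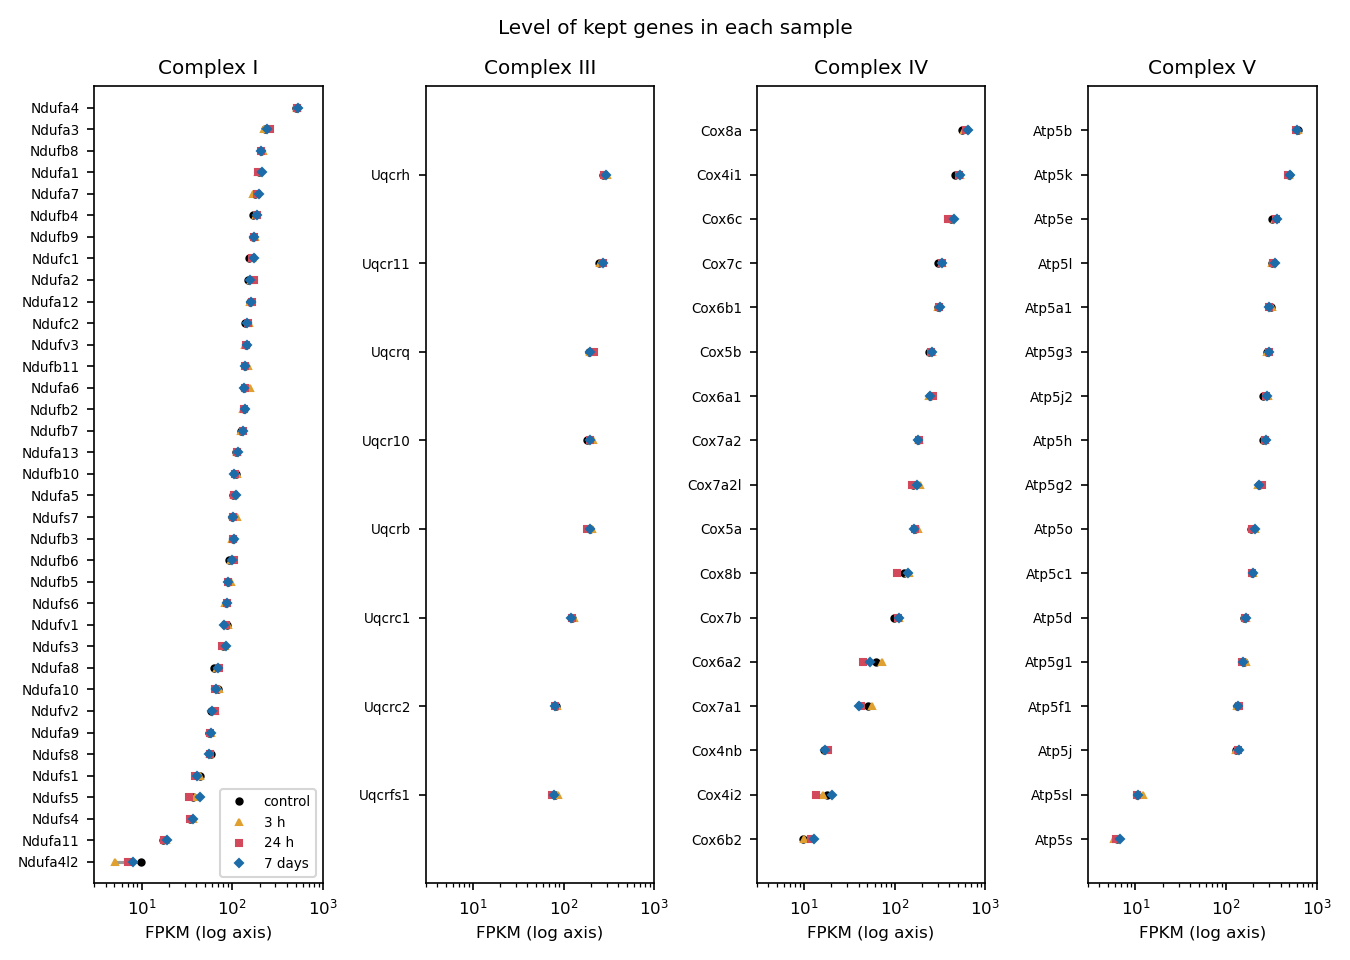
Level of the genes, 1 not shown, in FPKM (log axis) in the control and 3 h, 24 h and 7 days after light, by complex and ordered by mean level. The 4 symbols of most genes lie on top of each other, while Ndufa4l2, Cox6a2, Cox7a1 and Cox4i2 spread out.

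At the low end, Atp5s (mean 6.24 FPKM) and Ndufa4l2 (mean 7.51 FPKM) were the nearest genes inside the minimum of 1 FPKM. The 2 genes outside it were testis isoforms of complex IV. Cox7b2 was listed at 0 in the first 3 samples and at 0.0806 FPKM at 7 days, and Cox8c was listed at 0 in all 4. The wide gap between 0.0201 and 6.24 FPKM in mean level means that no member lay near the minimum.

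After light the set stayed close to its control level. Changes are given as log2 of (FPKM + 1) in a light sample over (FPKM + 1) in the control, which understates the change of low genes. The median change over the 79 genes was 0.06 at 3 h, 0.03 at 24 h and 0.06 at 7 days, beside 0.02, 0.01 and 0.00 for all 14194 genes. Among the 4050 genes with a mean of at least 20 FPKM, a fairer measure for such abundant transcripts, the medians were 0.05, 0.04 and 0.02. The sign of the small shift depended on the scaling, since rescaling the samples to the same sum without lens, muscle, erythroid, corneal and small RNA genes gave medians of -0.0084 at 3 h and -0.0098 at 24 h. No member moved by 1 log2 unit in either direction at any time, where 0.789% of all genes did so at 3 h, 1.11% at 24 h and 0.599% at 7 days.

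A smaller step of 0.2 log2 units was passed by few members. At 3 h, 6 of 79 were higher by at least that much and 1 was lower, against 14.8% and 11.4% of all genes. The 6 became 3 when the samples were rescaled by the median ratio, and 0 with the rescaling to the reduced sum. At 24 h, 3 were higher and 6 lower, against 13.9% and 13.2% of all genes, and the 3 became 1 with the reduced sum. At 7 days, 2 were higher and 3 lower, against 9.6% and 8.66% of all genes. Put the other way, 91.1%, 88.6% and 93.7% of the members departed by less than that step at 3 h, 24 h and 7 days. Among genes with a mean of at least 20 FPKM the shares were 76.2%, 71.9% and 79.3%. Over all 3 times at once, 64 of 79 members (81.0%) stayed inside the step, beside 58.2% of the genes with a mean of at least 20 FPKM. The 3 light samples share the 1 control sample, so the 3 comparisons are not independent of each other. Within 2 approximate counting standard errors of 0 were 56, 52 and 48 of the 79 changes at 3 h, 24 h and 7 days, and 23, 27 and 31 were beyond. The share of all genes beyond was not computed, so these counts cannot show whether the members differ from other genes. The median absolute change was 0.07, 0.07 and 0.09 log2 units.

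**Figure D2:**
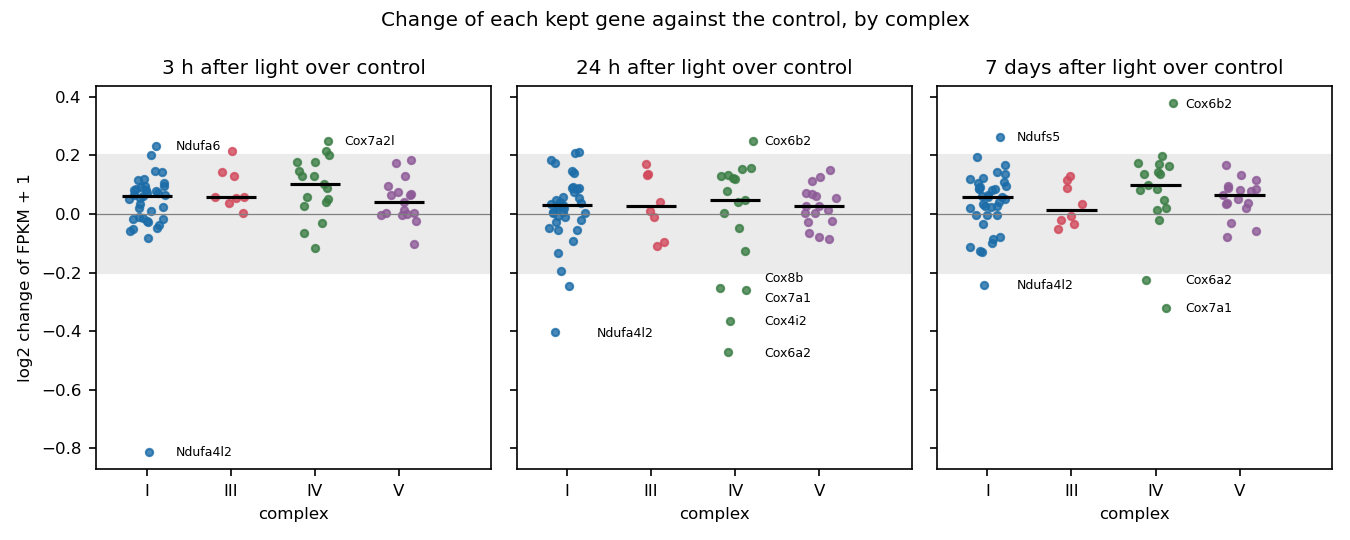
Change of each gene against the control in log2 units at 3 h, 24 h and 7 days after light, by complex (each point 1 gene, horizontal bars the medians, grey band 0.2 log2 units either side of 0). Complex V lies within the band at all 3 times, and the points below it at 24 h include Ndufa4l2 and 4 isoforms of complex IV.

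Between successive light samples the set moved as little. The median change was -0.02 for 24 h over 3 h and 0.01 for 7 days over 24 h. For 24 h over 3 h, 11.0% of all genes were higher by at least 0.2 log2 units and 14.3% lower, and for 7 days over 24 h the shares were 11.6% and 9.8%. Of the 79 members, 3 were higher and 8 lower by that step for 24 h over 3 h, and 5 were higher and 0 lower for 7 days over 24 h. The 3 muscle isoforms of complex IV were all lower at 24 h than at 3 h by at least 0.4 log2 units, which no other member was, as the other 5 genes below the step were lower by less.

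Complex I is the largest of the 4 complexes, and its symbols added up to 4447 FPKM in the control, 4596 FPKM at 3 h, 4590.1 FPKM at 24 h and 4620.0 FPKM at 7 days. Its median change was 0.06, 0.03 and 0.06 at the 3 times. The 7 nuclear-encoded core subunits, which carry the flavin and iron-sulfur clusters or form the quinone site and are conserved from bacteria, had medians of 0.01, -0.06 and -0.10. The 28 accessory subunits, which surround the core and steady it, had medians of 0.07, 0.04 and 0.06.

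Within the core, Ndufs1, the largest subunit of the NADH-oxidising arm, was at 44.6, 43.8, 38.9 and 41.2 FPKM at control, 3 h, 24 h and 7 days, with its lowest value at 24 h. Ndufv1, which binds the flavin that takes electrons from NADH, was at 88.1, 88.8, 84.8 and 80.5 FPKM and lowest at 7 days. Ndufv2, its partner in the same arm, did otherwise, with 58.6 FPKM in the control, 64.9 FPKM at 3 h, 64.7 FPKM at 24 h and 59.7 FPKM at 7 days. Ndufs7, which holds the last iron-sulfur cluster before the quinone, was at 98.7 FPKM in the control, 113.6 FPKM at 3 h, 101.2 FPKM at 24 h and 101.7 FPKM at 7 days, so that only the 3 h value stood out. Ndufs3 and Ndufs8, also of the quinone-reducing arm, stayed within 0.1 log2 units of the control at each time.

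Among the accessory subunits the lowest change over the control was -0.13, that of Ndufs5 at 24 h. Ndufa6, a small protein of the peripheral arm, had one of the 3 largest increases of the whole set at 3 h, with 134.4 FPKM in the control, 158.0 FPKM at 3 h, 138.2 FPKM at 24 h and 133.9 FPKM at 7 days. Ndufa2 was highest at 24 h, with 149.3, 162.0, 172.9 and 158.4 FPKM at control, 3 h, 24 h and 7 days. Ndufb6, of the membrane arm, was also highest at 24 h, with 91.4, 96.6, 105.8 and 100.6 FPKM. The changes at 24 h were 0.21 for both. Ndufs5, an accessory subunit of the membrane arm, was at 36.7 FPKM in the control, 38.6 FPKM at 3 h, 33.4 FPKM at 24 h and 44.2 FPKM at 7 days, a change of 0.26 at 7 days. Ndufs4, needed for a stable and active complex, was almost flat at 34.3, 36.7, 34.4 and 36.5 FPKM. The acyl carrier protein Ndufab1 is a further accessory subunit, but its symbol lies outside the pattern, and it stood at 43.2, 47.8, 46.8 and 48.3 FPKM.

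Complex III gave the smallest sum, 1380.0 FPKM in the control, 1469 FPKM at 3 h, 1435 FPKM at 24 h and 1432 FPKM at 7 days. Its 8 genes had median changes of 0.06, 0.03 and 0.01, and all 8 were above 0 at 3 h, 5 at 24 h and 4 at 7 days. Of the 4050 genes with a mean of at least 20 FPKM, 2558, 2466 and 2329 were above 0. Such signs depend on the scaling, since the rescaling to the reduced sum shifts values by -0.07, -0.04 and -0.04 log2 units. The core proteins Uqcrc1 and Uqcrc2 and the Rieske iron-sulfur protein Uqcrfs1, which carries electrons from ubiquinol to cytochrome c1, had medians of 0.06, -0.01 and -0.03. The 5 small subunits had medians of 0.06, 0.13 and 0.09. Uqcr10, one of them, had the largest single change, with 180.2 FPKM in the control, 209.0 FPKM at 3 h, 197.7 FPKM at 24 h and 197.3 FPKM at 7 days. It was the only member of complex III to pass 0.2 log2 units, at 3 h. Uqcrfs1 was at 79.7, 87.3, 74.5 and 77.8 FPKM, high at 3 h and low at 24 h.

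In complex IV the 3 genes past the step of 0.2 log2 units at 3 h were Cox7a2l (0.25), Cox6a2 (0.22) and the common subunit Cox7b (0.20). Only Cox6a2 of these is a tissue isoform, while all 5 genes of complex IV past the step at 24 h, and all 3 at 7 days, were tissue isoforms. Its symbols added up to 3415 FPKM in the control, 3625 FPKM at 3 h, 3515 FPKM at 24 h and 3677 FPKM at 7 days, with median changes of 0.10, 0.05 and 0.10. The share of its genes closer to the control than 0.2 log2 units was 82.4%, 70.6% and 82.4%, the lowest of the 4 complexes at each time, beside 73.8%, 72.8% and 81.7% of all genes. The 10 common subunits had medians of 0.07, 0.10 and 0.09, and 9 of 10 were above 0 at 24 h and at 7 days. So were 701 and 740 of the 917 genes with a mean of at least 20 FPKM and at most 600 coding bases. Cox4i1, the large common regulatory subunit, stood at 467.9 FPKM in the control, 529.2 FPKM at 3 h, 510.1 FPKM at 24 h and 526.4 FPKM at 7 days, above the control at each time. Cox8a was at 559.1, 581.7, 608.2 and 641.0 FPKM, highest at 7 days with a change of 0.20. Cox7b, a small subunit at the rim of the complex, was at 97.8, 112.7, 109.3 and 110.5 FPKM. Cox6c alone among the common subunits was clearly below the control at 24 h, with 422.8 FPKM in the control, 404.3 FPKM at 3 h, 387.1 FPKM at 24 h and 448.8 FPKM at 7 days, a change of -0.13 at 24 h.

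Several complex IV subunits exist in pairs, a widely expressed form and a form of heart and skeletal muscle. All 3 muscle forms, Cox6a2, Cox7a1 and Cox8b, were higher at 3 h and lower at 24 h than in the control, while their partners stayed within 0.2 log2 units of it. The rescaling to the reduced sum shifts values by -0.07 log2 units at 3 h, so the rises at 3 h are smaller with it. Cox6a2 was at 62.8 FPKM in the control, 73.1 FPKM at 3 h, 45.0 FPKM at 24 h and 53.5 FPKM at 7 days, with changes of 0.22, -0.47 and -0.23. Cox7a1 was at 50.3, 55.8, 41.9 and 40.0 FPKM, with changes of 0.15, -0.26 and -0.32. Its approximate counting standard error at 3 h was 0.11, so that rise was within 2 counting errors of 0. Cox8b was at 126.2, 142.8, 105.7 and 139.5 FPKM, with changes of 0.18, -0.25 and 0.14, so that at 7 days it stood above the control where the other 2 stood below. The partner Cox6a1 was at 242.8, 237.7, 266.3 and 246.3 FPKM, and it was lowest at 3 h and highest at 24 h. Its change at 24 h was 0.13, with an approximate counting standard error of 0.04, and so beyond 2 counting errors of 0. Cox7a2 was at 178.5, 185.2, 184.7 and 180.3 FPKM and never 0.1 log2 units from the control.

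As a share of each pair, Cox6a2 made up 20.5%, 23.5%, 14.5% and 17.9% of Cox6a1 plus Cox6a2 over the samples from control to 7 days. The share of Cox7a1 was 21.98%, 23.2%, 18.5% and 18.2%, and that of Cox8b was 18.4%, 19.7%, 14.8% and 17.9%. Each muscle form had a lower share at 24 h than at 3 h. These shares come from FPKM and cover the RNA only.

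Markers of skeletal muscle, which clings to the eyeball as the extraocular muscles, moved over the same samples. The 24 marker genes added up to 3042 FPKM in the control, 3245 FPKM at 3 h, 1965 FPKM at 24 h and 2642 FPKM at 7 days, and all 24 were lower at 24 h than in the control. At 3 h they were split, with 12 above the control and 12 below it. At 7 days 23 were below the control and 1 above it, whereas Cox8b stood above it. All 24 were higher at 7 days than at 24 h, as Cox6a2 and Cox8b were and Cox7a1 was not. The summed muscle isoforms of complex IV were 239.3, 271.7, 192.6 and 233.0 FPKM. Creatine kinase M (Ckm), an enzyme of muscle energy supply, stood at 239.5, 279.7, 170.0 and 214.1 FPKM, high at 3 h and low at 24 h as Cox6a2 was. It was one of the 12 markers above the control at 3 h. The 4 fat genes with at least 1 FPKM (Cidea, Adipoq, Fabp4 and Cfd) summed to 20.7, 61.7, 33.7 and 19.5 FPKM, highest at 3 h, and of these Fabp4, the fatty acid carrier of adipocytes, was at 12.2, 37.5, 20.3 and 13.0 FPKM. Ucp1, the defining gene of brown fat, which also uses Cox7a1 and Cox8b, stayed at or under 0.908 FPKM. The part of muscle and fat in the isoform values was not tested. In bulk RNA such as this, fewer cells of a type and less RNA per cell cannot be told apart.

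**Figure D3:**
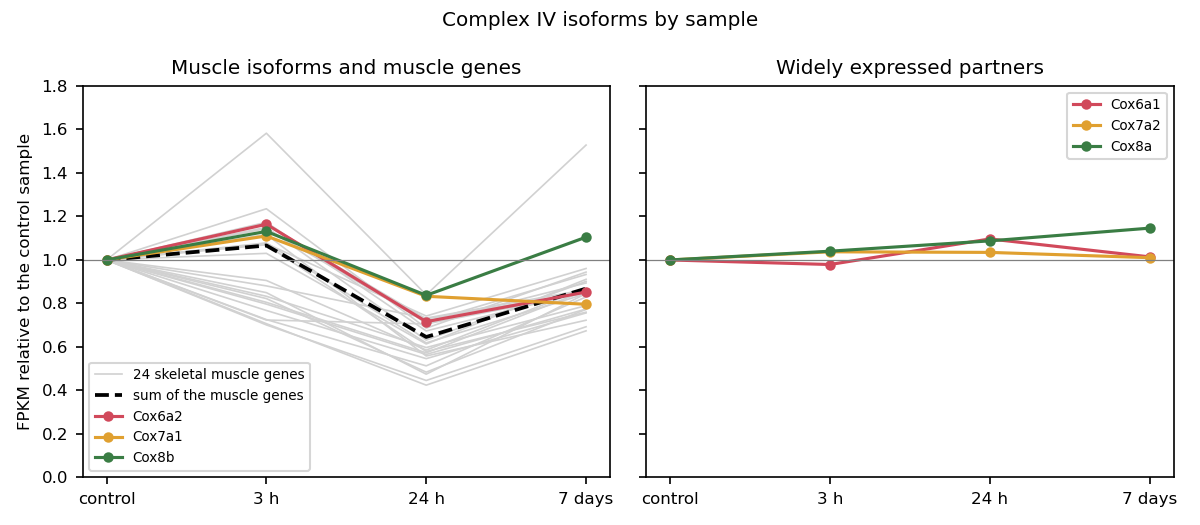
FPKM relative to the control sample for the muscle isoforms Cox6a2, Cox7a1 and Cox8b with 24 skeletal muscle genes (left) and for the widely expressed partners Cox6a1, Cox7a2 and Cox8a (right). The muscle isoforms and the summed muscle genes are above 1 at 3 h and below 1 at 24 h, and the partners stay between 0.979 and 1.146.

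The promoters of 2 such pairs are printed because the members of a pair make closely related proteins and are known to be used in different tissues. They are the 250 bases before the annotated start from RefSeq on GRCm38.p6, given along the gene's strand. Cox7a1 is at chr7:30183921-30184170 (plus strand), Cox7a2 at chr9:79759854-79760103 (minus strand), Cox8b at chr7:140900447-140900696 (minus strand) and Cox8a at chr19:7217617-7217866 (minus strand). Capitals mark CCAAT boxes, which read ATTGG where they lie on the other strand, and the E-box CAGCTG.
Cox7a1: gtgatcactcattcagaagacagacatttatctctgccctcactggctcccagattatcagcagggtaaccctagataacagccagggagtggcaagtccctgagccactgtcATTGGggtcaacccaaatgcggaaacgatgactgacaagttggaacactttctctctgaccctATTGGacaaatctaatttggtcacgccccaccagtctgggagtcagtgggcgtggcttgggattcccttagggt
Cox7a2: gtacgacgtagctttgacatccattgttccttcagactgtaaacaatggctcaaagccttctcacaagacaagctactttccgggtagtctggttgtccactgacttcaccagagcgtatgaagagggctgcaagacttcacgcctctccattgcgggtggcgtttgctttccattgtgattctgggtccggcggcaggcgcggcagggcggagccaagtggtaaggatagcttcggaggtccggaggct
Cox8b: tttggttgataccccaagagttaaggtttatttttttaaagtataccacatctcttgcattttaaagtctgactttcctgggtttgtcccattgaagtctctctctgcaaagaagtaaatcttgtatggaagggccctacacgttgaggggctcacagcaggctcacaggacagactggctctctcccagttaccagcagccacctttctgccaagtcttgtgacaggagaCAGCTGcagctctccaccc
Cox8a: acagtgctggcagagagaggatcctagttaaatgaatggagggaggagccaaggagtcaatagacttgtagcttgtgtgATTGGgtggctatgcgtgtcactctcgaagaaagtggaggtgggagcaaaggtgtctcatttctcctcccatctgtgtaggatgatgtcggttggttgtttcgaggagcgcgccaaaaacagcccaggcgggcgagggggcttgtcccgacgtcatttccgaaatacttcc
The muscle forms held fewer CG dinucleotides, 4 in Cox7a1 and 1 in Cox8b, against 14 in Cox7a2 and 11 in Cox8a. Across the 62 members with a promoter entry the median was 14, and across the 9951 genes with at least 1 FPKM and an entry it was 16. The E-box CAGCTG, a string that muscle regulators of the MyoD family bind, was found in Cox8b and not in this stretch of Cox7a1. It was present in 9.68% of the members' promoters and in 12.5% of those of the 9951 genes. CCAAT was present in Cox7a1 and Cox8a, in 41.9% of the members and in 36.2% of the genes.

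Other strings were counted on both strands of the same 250 bases, and none of them contains another. The NRF1 core, GCGCA and GCGC parted by any 1 base and named for a regulator of many respiratory chain genes, was present in 10 of 62 members (16.1%) and in 7.67% of the 9951 genes. The 10 members were Atp5g2, Atp5h, Atp5k, Cox6a1, Ndufa11, Ndufa5, Ndufa8, Ndufb4, Ndufs5 and Ndufs6. Their median change was 0.06, 0.04 and 0.10 at the 3 times, against 0.07, 0.04 and 0.07 for the 52 members without it. The ETS string CCGGAAG was in 16.1% of the members and 12.6% of the genes, TATAAA in 8.06% and 6.82%, the ERR string TCAAGGTCA in 1.61% and 0.261%, and the YY1 string AAGATGGCG in 0 of 62 members and 1.08% of the genes. A match describes letters and is no evidence of binding.

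The remaining isoforms of complex IV were scarce. Cox4i2, the form of lung that responds to oxygen, was at 17.8 FPKM in the control, 16.3 FPKM at 3 h, 13.6 FPKM at 24 h and 20.1 FPKM at 7 days, which is 3.66%, 2.99%, 2.59% and 3.67% of Cox4i1 plus Cox4i2. Its change was -0.37 at 24 h and 0.17 at 7 days. Cox6b2, the testis form, was at 9.74, 10.1, 11.8 and 12.9 FPKM. It had the largest increase of the set at 24 h (0.25) and at 7 days (0.38). With approximate counting standard errors of 0.22 and 0.20, resting on coding length, both changes of Cox6b2 were within 2 counting errors of 0. Its partner Cox6b1 was at 296.3, 302.1, 304.8 and 314.0 FPKM. The 7-day value of Cox6b2 goes with the one sample that held Y-linked transcripts, and the part of sex in it was not tested.

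Complex V held no gene that passed 0.2 log2 units at any time. Its 17 symbols added up to 4083 FPKM in the control, 4203 FPKM at 3 h, 4146 FPKM at 24 h and 4221 FPKM at 7 days, with median changes of 0.04, 0.03 and 0.06. In the F1 head, where ATP is made, Atp5a1 (alpha) was at 314.8, 324.3, 298.2 and 298.2 FPKM, so that both it and Atp5b were slightly below the control at 24 h and 7 days. Atp5e, the small epsilon subunit of the central stalk, was above the control at each time, at 323.2, 345.6, 359.0 and 363.1 FPKM. The 4 peripheral stalk genes Atp5f1, Atp5h, Atp5j and Atp5o, which hold the head still while the rotor turns, were all above 0 at each time with changes of at most 0.13. Of the 4050 genes with a mean of at least 20 FPKM, 2558, 2466 and 2329 were above 0. Atp5j2, the f subunit of the membrane part, was at 256.6, 289.6, 277.3 and 281.5 FPKM.

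The 3 genes Atp5g1, Atp5g2 and Atp5g3 encode the same mature c subunit, the ring that turns as protons pass, behind different targeting peptides. Their sum was 670.7 FPKM in the control, 674.8 FPKM at 3 h, 696.6 FPKM at 24 h and 685.6 FPKM at 7 days. Atp5g3 gave 42.3%, 42.1%, 42.8% and 43.3% of it, Atp5g2 34.0%, 33.3%, 35.7% and 34.1%, and Atp5g1 23.6%, 24.6%, 21.4% and 22.6%. The order of the 3 genes was the same in all 4 samples. No source used here says how a fragment with several matching places was counted, so the split among such near-identical genes, and between members and their processed pseudogenes, is uncertain.

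Of the matched symbols, 5 do not encode subunits of these complexes. Ndufa4l2, a relative of Ndufa4 that is induced by low oxygen, had the largest change of the set, with 9.73 FPKM in the control, 5.12 FPKM at 3 h, 7.11 FPKM at 24 h and 8.07 FPKM at 7 days. All light samples were below the control, at 0.526, 0.730 and 0.829 of its level, and the changes were -0.81, -0.40 and -0.24 on the log2 scale, with counting standard errors of 0.32, 0.27 and 0.24. By these errors, which are approximate and rest on coding length, the change at 24 h and 7 days was within 2 counting errors of 0. Ndufa4 itself was at 501.6, 523.6, 521.3 and 534.9 FPKM. Ndufa4l2 and Cox4i2 are known in the brain as genes of mural cells, the pericytes and smooth muscle of vessels. A list of 10 mural genes, chosen after the values of these 2 were seen, had medians of -0.21, -0.16 and 0.01 and summed to 259.3, 235.5, 234.9 and 272.2 FPKM. The mural list was split at 3 h, with 3 genes above the control and 7 below it (changes from -0.50 to 0.21). By 24 h 2 were above and 8 below, and in the 7-day sample 5 and 5. Pdgfrb, the receptor that marks pericytes, stood at 16.3, 11.3, 11.6 and 15.0 FPKM. Its change at 3 h lay at the low end of the mural list, so it does not stand for the list as a whole. Endothelial genes, 8 in a list also chosen after the values were seen, had medians of -0.43, -0.31 and -0.07. A list of 12 genes that respond to low oxygen, likewise chosen after the values were seen, had medians of -0.06, -0.04 and -0.04. The part of vessel cells in the change of Ndufa4l2 was not tested.

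Cox7a2l, which joins complexes III and IV into supercomplexes, had the largest increase at 3 h. It was at 160.5 FPKM in the control, 190.9 FPKM at 3 h, 155.3 FPKM at 24 h and 176.7 FPKM at 7 days, with a change of 0.25 at 3 h and -0.05 at 24 h. The others were low. Cox4nb, a neighbour of Cox4i1 that encodes a part of an endoplasmic reticulum complex, was at 16.6, 17.9, 18.2 and 17.2 FPKM. Atp5sl, an assembly factor of complex I despite its symbol, was at 10.4, 11.97, 10.5 and 10.6 FPKM, and Atp5s, a factor linked to ATP synthase, was at 6.30, 5.79, 6.16 and 6.71 FPKM. Without these 5 genes and the 3 muscle isoforms, the other 71 had medians of 0.06, 0.04 and 0.06, and 94.4%, 93.0% and 97.2% of them departed by less than 0.2 log2 units.

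The small differences inside the set went with the length of the coding sequence at 24 h and 7 days. The members are short genes, with a median of 408 coding bases (156 to 2181) against 1395 for all genes with a length in GENCODE M21. The rank correlation (Spearman) between coding length and change across the 79 members was -0.08 at 3 h, -0.32 at 24 h and -0.49 at 7 days. Across 3811 other genes with a mean of at least 20 FPKM it was -0.12, -0.30 and -0.44. The points share libraries and scaling, and genes are not independent replicates. The 10 members with more than 1000 coding bases, Atp5b and Ndufs1 among them, had medians of 0.02, -0.06 and -0.07. For the 2067 other genes of that length the medians were 0.03, 0.00 and -0.02. At 300 coding bases or fewer, 22 members had medians of 0.08, 0.07 and 0.09, and 133 other genes 0.07, 0.12 and 0.12. The core subunits of complex I and the core proteins of complex III, which had the lower medians above, include 5 of these 10 long genes, and the part of length in those medians was not tested. Among the 917 genes that had a mean of at least 20 FPKM and at most 600 coding bases, which include members, the medians were 0.07, 0.10 and 0.10, so beside other short abundant genes the members' medians of 0.06, 0.03 and 0.06 were not high.

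**Figure D4:**
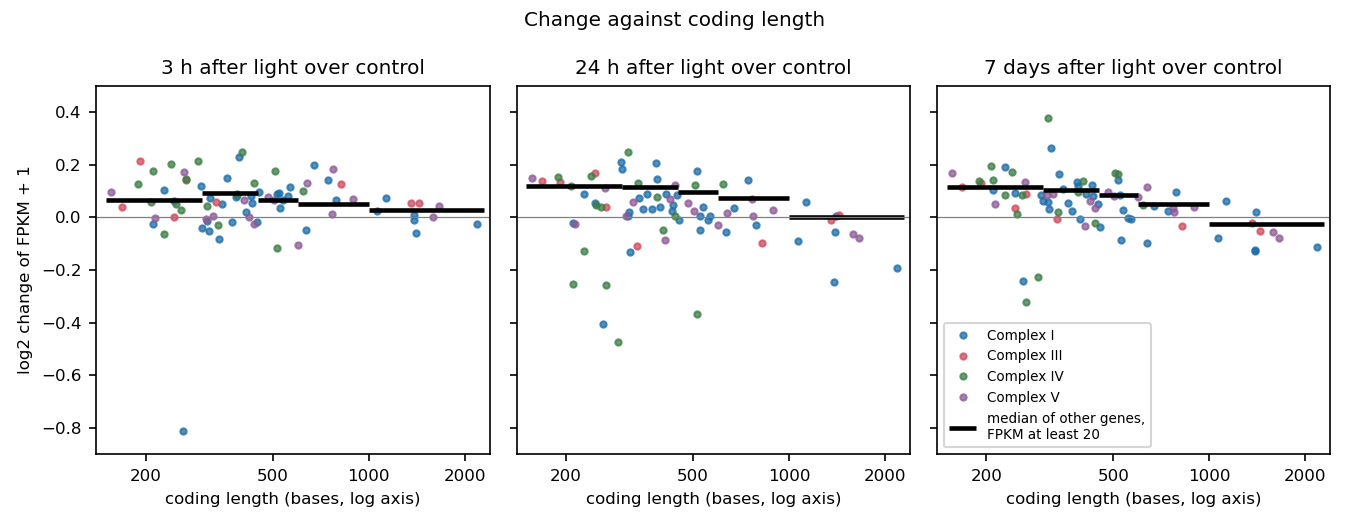
Change of each gene in log2 units against its coding length in bases (log axis) at 3 h, 24 h and 7 days after light over the control, by complex, with the medians of other genes with a mean of at least 20 FPKM in 5 length classes (black bars). Points and bars both slope down with length at 24 h and 7 days.

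Genes of the steps around the chain had medians within 0.1 log2 units of 0, and those of glycolysis had lower ones. The 4 genes of complex II (Sdha, Sdhb, Sdhc and Sdhd), which is at once part of the citric acid cycle and the chain and has no mitochondrially encoded subunit, had medians of -0.01, 0.00 and 0.01, and none passed 0.2 log2 units. The 13 citric acid cycle genes had medians of 0.05, -0.05 and -0.04, and 1 of them, Suclg2, passed it at 24 h (0.23). The 11 carrier and exchange genes had medians of 0.10, 0.03 and 0.01, with 2 higher by at least 0.2 log2 units at 3 h (Cycs and Ckmt1) and 1 lower at 24 h (Ckmt1). Among these, cytochrome c (Cycs) was at 33.7, 39.1, 33.4 and 33.6 FPKM, highest at 3 h. Slc25a4, an ADP/ATP carrier, was at 630.0 FPKM in the control, 681.1 FPKM at 3 h, 643.9 FPKM at 24 h and 642.8 FPKM at 7 days. Ckmt1, the mitochondrial creatine kinase of brain and retina, departed furthest, with 52.4, 67.6, 43.1 and 48.9 FPKM.

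Of 17 glycolysis genes, 8 were lower by at least 0.2 log2 units at 3 h, 7 at 24 h and 8 at 7 days. Of all genes, 11.4%, 13.2% and 8.66% were lower by as much. Glycolysis genes higher by as much numbered 0, 1 and 0, and the medians were -0.17 at each time. Aldoa, the aldolase of muscle and many other cells, was at 1394 FPKM in the control, 1100 FPKM at 3 h, 1019 FPKM at 24 h and 1084 FPKM at 7 days. Pkm2, the pyruvate kinase gene, was at 808.8, 587.3, 602.5 and 618.5 FPKM, and all light samples were below the control. Hk1, the first enzyme of the path in neurons, was the exception at 24 h with 107.8, 108.0, 163.1 and 95.9 FPKM. Rod photoreceptor genes, 21 in the list, had medians of -0.27, -0.69 and -0.53 and summed to 18356 FPKM in the control, 15973 FPKM at 3 h, 11677 FPKM at 24 h and 12620 FPKM at 7 days. The summed respiratory chain was 1.04, 1.03 and 1.05 times the control in the same samples. Whether the difference between the lists holds between mice cannot be told from 1 value per group.

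**Figure D5:**
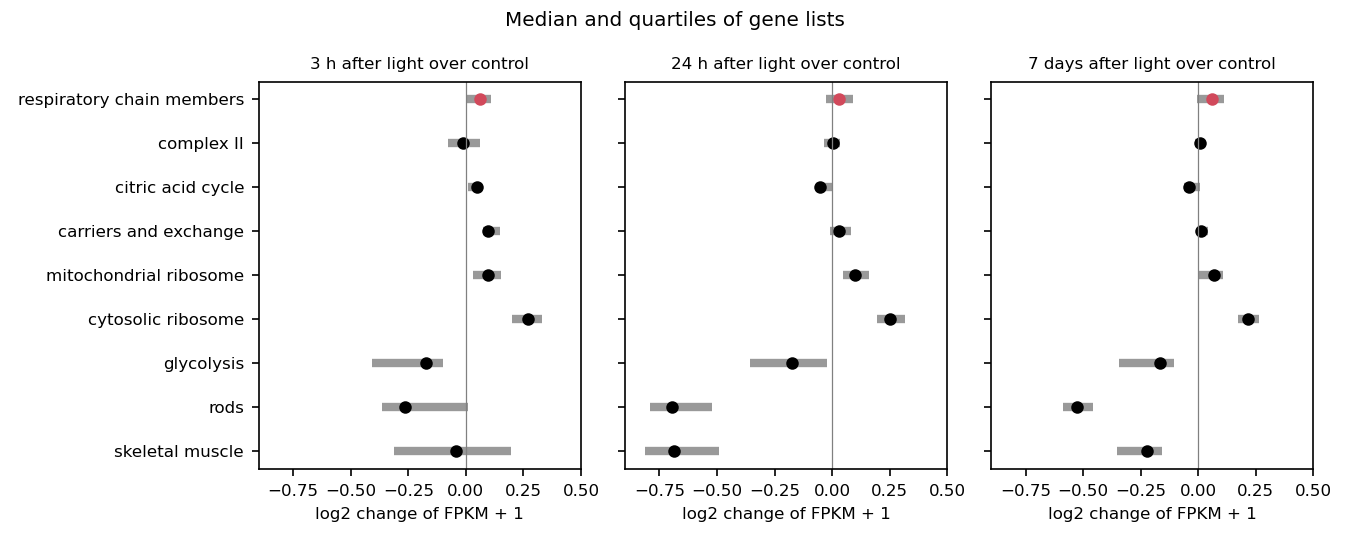
Median (points) and quartiles (bars) of the log2 change at 3 h, 24 h and 7 days after light over the control for the 79 respiratory chain genes (red) and for other gene lists. The respiratory chain, complex II and the citric acid cycle lie near 0, the cytosolic ribosome to the right, and glycolysis, rods and, at 24 h, skeletal muscle to the left.

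Assembly factors, which insert cofactors and join subunits, had medians of different sign between the complexes in the values as deposited. The signs of the small medians depend on the scaling, since the rescaling to the reduced sum shifts values by about -0.07, -0.04 and -0.04 log2 units. Of the listed factors, 9 of 13 were found for complex I, 4 of 7 for complex III, 12 of 19 for complex IV and 5 of 5 for complex V. As deposited, the medians were 0.07, 0.04 and 0.03 for 9 factors of complex I and 0.24, 0.15 and 0.13 for 3 of complex III. They were -0.04, -0.01 and -0.07 for 12 of complex IV, and 0.14, 0.12 and 0.09 for 5 of complex V. Bcs1l, which inserts the Rieske protein into complex III, was at 4.90 FPKM in the control, 6.62 FPKM at 3 h, 6.44 FPKM at 24 h and 6.83 FPKM at 7 days, above the control in each light sample. Lrpprc, which steadies mitochondrial messenger RNA, was at 17.1, 16.7, 13.7 and 14.6 FPKM.

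Regulators of mitochondrial biogenesis drive many of these genes. The 12 regulators had medians of 0.08, 0.06 and 0.01, and 10, 7 and 6 of them were above 0 at 3 h, 24 h and 7 days. Of all 14194 genes, 7674, 7277 and 7203 were above 0. By the step of 0.2 log2 units, 1, 2 and 0 of the regulators were higher and 1, 3 and 2 lower. Ppargc1b, a coactivator of mitochondrial genes, was at 8.74 FPKM in the control, 7.51 FPKM at 3 h, 4.93 FPKM at 24 h and 7.96 FPKM at 7 days, its lowest level at 24 h. Yy1 was higher at 3 h and 24 h, with 23.8, 29.8, 29.5 and 24.6 FPKM. Nrf1 was at 12.9, 13.5, 12.1 and 10.9 FPKM, and Tfam, which packages mitochondrial DNA, at 7.07, 7.42, 7.29 and 7.23 FPKM.

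Among 10 genes of the mitochondrial stress response, 5 were higher by at least 0.2 log2 units at 3 h, 4 at 24 h and 1 at 7 days, against 14.8%, 13.9% and 9.6% of all genes. Those lower by as much numbered 0, 0 and 2. Atf4, the transcription factor at the head of that response, was at 126.6 FPKM in the control, 199.3 FPKM at 3 h, 144.8 FPKM at 24 h and 108.5 FPKM at 7 days. Hspe1, a chaperone of the mitochondrial matrix, was at 90.9, 112.7, 120.1 and 106.3 FPKM. Proteins of the ribosomes, also short and abundant, stood higher than the chain, with medians of 0.27, 0.25 and 0.21 for 79 cytosolic and 0.10, 0.10 and 0.07 for 76 mitochondrial ones.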

How the data were processed

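RNA of 4 groups of mouse eyes was sequenced. The authors deposited 1 FPKM value per gene and group. Per the submitters' processing notes, the mm9 build was used with TopHat2 (version 2), Cuffdiff 2.2.1 and bcl2fastq 1.8.3, and the series design adds Cufflinks. Not given in the sources used here are the annotation, the strand, the library scaling, the counting of fragments with several matches, and whether a value is 1 pooled library or a mean of 3. With FPKM, a change in a few abundant genes moves all others.

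From these values, log2((FPKM + 1) / (FPKM + 1)) was computed for genes with a mean of at least 1 FPKM, with Python 3.11.15, NumPy 2.4.6 and pandas 2.3.3. A step of 0.2 log2 units was called small and 1 log2 unit large. Medians and counts of the members stand beside those of all genes. With 1 value per group there was no test. In noise-free copies of the control values, the script returned the planted change of all 200 altered genes. That checks the arithmetic only, not whether small changes can be told from noise. Coding lengths (GENCODE M21) and promoters (RefSeq, GRCm38.p6) are of another build than the values and were matched by symbol. Depth was estimated from olfactory receptor genes above 0 in only 1 sample, with the median of their values taken as 1 fragment. Coding length stood in for transcript length in both the depth and the counting errors. These are therefore approximate, and the errors of single genes may be too large or too small.

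Genes were named by a rule: per complex the gene with the highest mean, at each time the 3 largest increases and decreases, all tissue isoforms, genes below the minimum, symbols that are not subunits, and genes within the account of their list. The values of 1 member are not reported here. The members, lists and rule were chosen with earlier results of these data known. Alternatives were another pseudocount (0.1), other minimums, 2 rescalings, and leaving out groups of members.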

Additional observations from a re-analysis of the deposited data

Results flagged for a closer look

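Cox6a2, the muscle isoform of a complex IV subunit, changed sign between times. Its log2 change over the control was 0.2162 at 3 h, against -0.4723 at 24 h and -0.2264 at 7 days. The difference between times was not tested, as each time is 1 value. It is set beside the muscle markers above, and their part in it was not tested.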

How the results depend on the processing

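No paired analysis was possible because each group has 1 value per gene, and for the same reason no replicate could be left out. The planned comparison with genes of short RefSeq proteins was not run, and genes with at most 600 coding bases, chosen after seeing the data, took its place. No result reversed beyond the step of 0.2 log2 units, but small medians depend on the scaling. Rescaled to the same sum without lens, muscle, erythroid, corneal and small RNA genes, the members' median was -0.0084 at 3 h, -0.0098 at 24 h and 0.0057 for 24 h over 3 h. The same rescaling gave -0.0084 and -0.0098 for complex I at 3 h and 24 h, -0.0117, -0.0163 and -0.0297 for complex III at 3 h, 24 h and 7 days, 0.0358 for complex IV at 3 h, and -0.0277 and -0.0159 for complex V at 3 h and 24 h. Members higher by at least 0.2 then numbered 0 at 3 h and 1 at 24 h, and 3 at 3 h when rescaled by the median ratio. Without the symbols that are not subunits, 0 members were lower at 3 h. Leaving out the muscle isoforms gave complex IV a median of 0.1001 at 24 h, and 3 lower members at 24 h and 1 at 7 days. Leaving out members with over 1000 coding bases, an alternative added after seeing the data, gave complex III a median of 0.0871 at 24 h. With the reduced sum as denominator the members' share was 3.44%, 3.41%, 3.43% and 3.49% at control, 3 h, 24 h and 7 days. The other 165 values of such summaries moved by less than 0.05 log2 units or, for counts, 1.5 times. Pseudocount and minimum changed none of the summaries by more.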
